A study of Mus musculus with 2 samples.

Results

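The genes described here encode the heterotrimeric G proteins and the regulators of G protein signalling (RGS proteins), measured in mouse brain. They are 37 mouse genes picked by name from the Gna, Gnb, Gng and Rgs families, and all 37 were found by gene identifier among the 43346 genes of each table. The set holds 9 Gα genes, 5 Gβ genes, 10 Gγ genes, 12 RGS genes and Rgs7bp, which encodes a membrane anchor of the R7 class of RGS proteins. The tissue was the brain of 1 male mouse of the inbred C57BL/6J strain, aged 10 weeks, with no treatment and no altered gene named, and the labels give no brain region. Poly(A) RNA was sequenced in 2 libraries, technical replicate 2 and technical replicate 1 of biological replicate 1, and the labels date replicate 2 after the study's first publication. The comparison that this design holds is replicate 2 against replicate 1, and the labels state no question for it. With 1 library on each side no difference could be checked in a further replicate. Means ± SD are taken across the pair of libraries, so their spread is technical and says nothing of other animals.

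A heterotrimeric G protein is a Gα subunit that binds guanine nucleotides and a Gβγ pair that acts as a unit. An activated receptor makes Gα exchange GDP for GTP, after which Gα and Gβγ each act on effectors such as adenylyl cyclases, phospholipase C and potassium channels. RGS proteins speed the hydrolysis of GTP by Gα and so end the signal, and in brain they set how fast receptors for glutamate, GABA, dopamine, opioids and other transmitters start and stop.

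The libraries held 17828479 expected counts in replicate 2 and 18302506 in replicate 1. A level in TPM is a transcript level scaled for length and to 1 total per library, and 14780 genes of replicate 2 and 11608 of replicate 1 reached a value of 1. Mitochondrial genes and 6 nuclear copies of them on chromosome 1 took 28.1% of the TPM total of replicate 2 and 63.1% of that of replicate 1, so nuclear genes shared a smaller remainder in replicate 1. Brain markers were present in both libraries: the summed TPM of 6 pan-neuronal genes was 4797 in replicate 2 and 4234 in replicate 1, that of 6 astrocyte genes 903 and 811, and that of 6 oligodendrocyte genes 2905 and 2111. Other marker sums differed more, with 532 TPM in replicate 2 and 178 in replicate 1 over 6 striatal genes, 300.2 and 182 over 6 microglial genes, 208 and 108 over 6 endothelial and mural genes, and 954 and 56.8 over 6 blood genes. Of the blood genes Cd3e was listed at 0 in both libraries and Hba-a1 in replicate 1. In tissue RNA, fewer cells of a type and less RNA per cell cannot be told apart. In libraries of the same mouse, neither can be told from a difference in measurement between the libraries. The marker sums are on the deposited scale and were neither rescaled without mitochondrial genes nor set against GC content.

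Of the 37 genes, 36 reached a TPM of 1 in replicate 2 and 33 did so in replicate 1. The most abundant in replicate 2 were Rgs4 at 413 TPM, Gnb1 at 409 TPM, Gnb2 at 353 TPM and Gnao1 at 304 TPM. In replicate 1 Rgs4 led at 352 TPM, followed by Gnb1 at 218 TPM, Gnao1 at 202 TPM and Gnai1 at 155 TPM, and Gnb2 stood at 0.90 TPM. Summed over all 37 genes the level was 3448 TPM in replicate 2 and 1959 TPM in replicate 1 (2703 ± 1053, SD, n = 2), and rescaled to a total without the mitochondrial genes and their copies it turned to 4794 and 5305 TPM. In 28 genes the TPM was higher in replicate 2 and in 9 it was lower, and after that rescaling 16 were higher and 21 lower. The directions of levels below are those of the deposited TPM unless said otherwise.

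**Figure D1:**
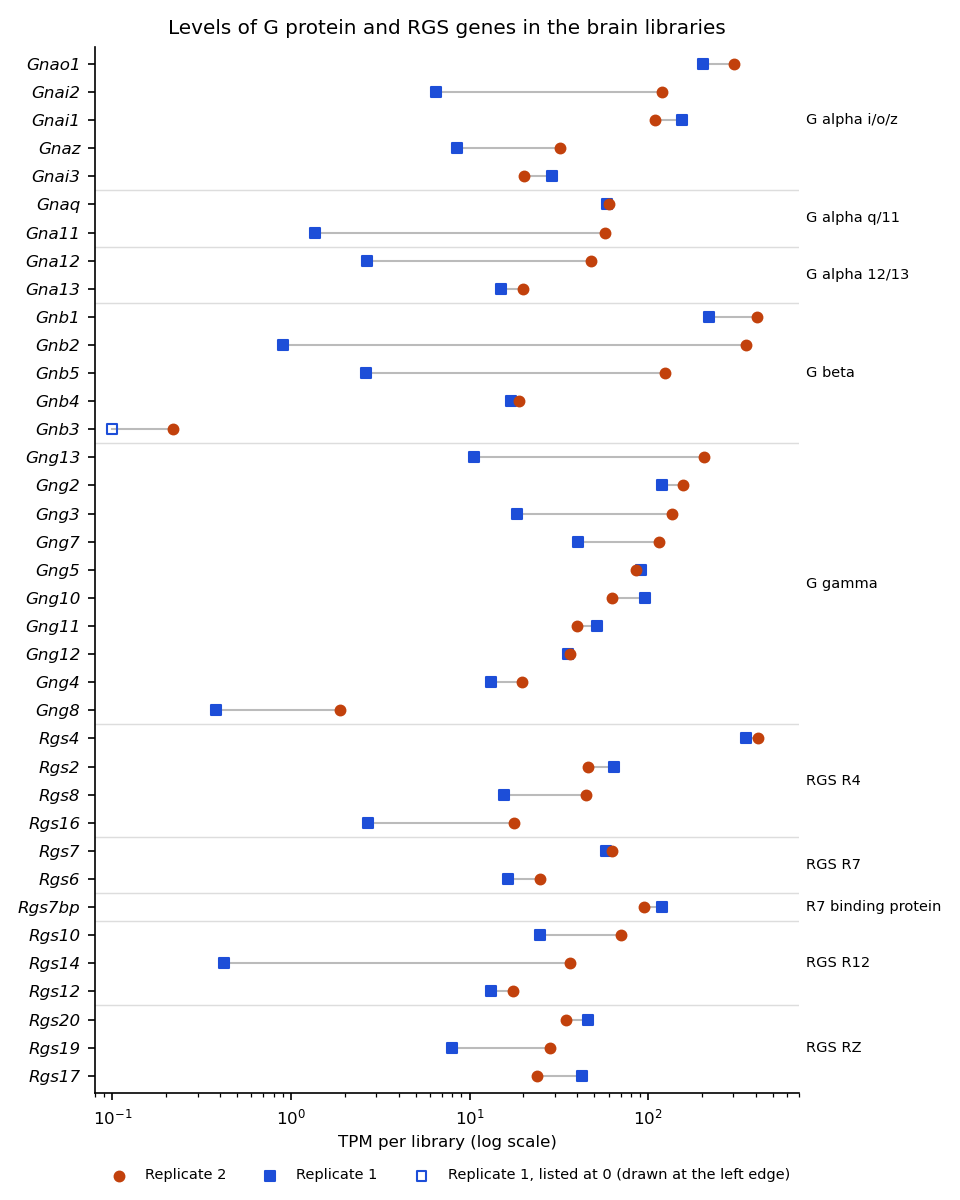
TPM of each of the 37 genes (log scale) in replicate 2 (circles) and replicate 1 (squares), grouped by class, with a line joining the libraries. Gnb2, Rgs14, Gnb5 and Gna11 have the longest lines, and in replicate 1 they lie at 0.90, 0.42, 2.63 and 1.37 TPM.

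The counts of each gene were set against each other in an exact binomial test (two-sided), after scaling the libraries by the trimmed mean of M-values (TMM). A gene was called where the adjusted p (Benjamini-Hochberg) was under 0.05 and the difference reached 2-fold. The test is on the reads of these libraries and not on conditions. Of the 36 genes with enough counts, 11 were called higher in replicate 2 and 10 lower, where 34.5% of all 16320 tested genes were called higher and 23.8% lower. The higher ones were Gnai2, Gna11, Gna12, Gnb2, Gnb5, Gng3, Gng7, Gng13, Rgs16, Rgs12 and Rgs14. Those called lower were Gnai1, Gnai3, Gng2, Gng5, Gng10, Gng11, Gng12, Rgs7bp, Rgs17 and Rgs20, and with library totals in place of TMM, which adds 0.61 to every log2 ratio, Rgs17 alone of them stayed called lower. With totals 16 genes were called higher, against a background of 43.4%, and 1 lower, against 7.83%. The 11 and 10 of 36 genes called with TMM lay near the shares of the whole table. The median log2 count ratio was 0.08 over the 36 tested genes and 0.09 over all tested genes.

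**Figure D2:**
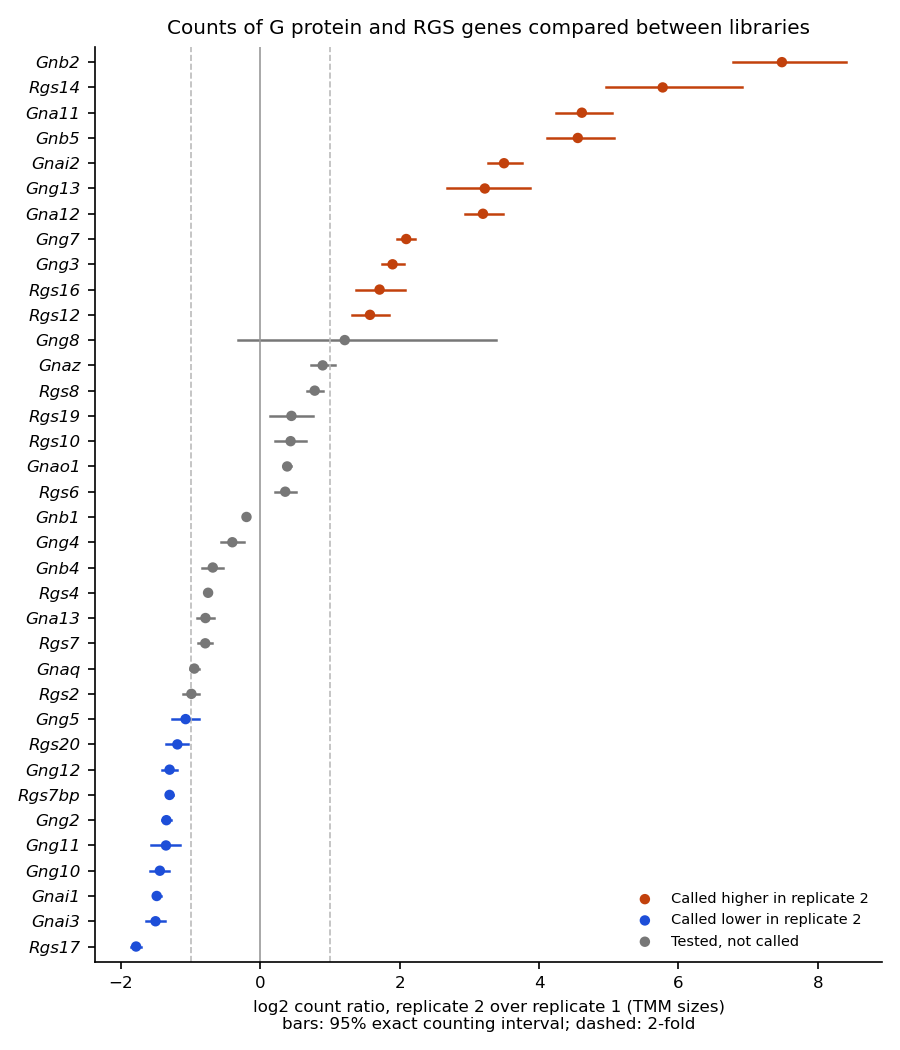
Log2 ratio of counts, replicate 2 over replicate 1 with TMM sizes, for the 36 tested genes, sorted, with 95% exact counting intervals. Gnb2 has the highest ratio at 7.48 and Rgs17 the lowest at -1.78, and 15 genes in grey were not called.

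The Gα genes of the i/o/z class encode the subunits through which many brain receptors lower cyclic AMP and, by way of Gβγ, open potassium channels. The class is the target of pertussis toxin, which modifies a cysteine near the end of the protein, and the last stretch of these proteins is also where the receptor makes contact. The ends of the coding sequences are shown because closely related genes of the class differed widely between the libraries. They are the last 60 bases, stop codon included, 5′ to 3′ on the coding strand, from GENCODE M21 transcripts on GRCm38, and capitals mark G or C at the third position of a codon. Gnai1 lies on chromosome 5 (18265135 to 18360355, minus strand), Gnai2 on chromosome 9 (107614125 to 107635367, minus strand), Gnai3 on chromosome 3 (108107280 to 108146146, minus strand), Gnaz on chromosome 10 (74967177 to 75016907, plus strand) and Gnao1 on chromosome 8 (93809966 to 93969388, plus strand).
Gnai1: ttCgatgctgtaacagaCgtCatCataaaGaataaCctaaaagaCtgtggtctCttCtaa
Gnai2: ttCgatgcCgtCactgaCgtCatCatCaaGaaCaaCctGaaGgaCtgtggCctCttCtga
Gnai3: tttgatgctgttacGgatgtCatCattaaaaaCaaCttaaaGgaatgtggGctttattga
Gnaz: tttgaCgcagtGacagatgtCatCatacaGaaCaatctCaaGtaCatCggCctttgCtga
Gnao1-201: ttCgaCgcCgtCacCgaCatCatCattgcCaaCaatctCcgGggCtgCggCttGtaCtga
Gnao1-207: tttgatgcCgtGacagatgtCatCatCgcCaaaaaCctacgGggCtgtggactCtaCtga

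The fourth codon before the stop is a cysteine codon in Gnai1, Gnai2, Gnai3 and both Gnao1 transcripts, and it is not in Gnaz, whose product is known to be insensitive to the toxin. Of the 60 bases shown, 9 differ between Gnai2 and Gnai1, 8 of them at the third codon position. The third position is G or C in 16 of 20 codons of the Gnai2 end, 9 of 20 in Gnai1 and 7 of 20 in Gnai3.

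Gnao1, the main Gα of brain membranes, had 304 TPM in replicate 2 and 202 TPM in replicate 1 (253 ± 71.9, SD, n = 2). Its counts were 9061 and 4665, a TMM-scaled ratio of 1.31 (95% counting interval 1.26 to 1.35), which was not called. It held 51.9% of the TPM of the class in replicate 2 and 50.4% in replicate 1. With levels recomputed from counts using 1 effective length per gene for both libraries, a computation chosen after seeing the data, its share was 56.8% in replicate 2 and 42.9% in replicate 1.

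The 3 Gαi genes, whose products inhibit adenylyl cyclase, did not move together. Gnai2, a form present in most tissues, was at 119.7 TPM in replicate 2 and 6.47 TPM in replicate 1. Its 2493 counts in replicate 2 against 148 in replicate 1 gave a ratio of 11.3 (95% counting interval 9.59 to 13.5), and it was called higher. Gnai1, a form enriched in brain, had 109 TPM in replicate 2 and 155 TPM in replicate 1 and was called lower, with 3561 counts against 6713 and a ratio of 0.357 (0.342 to 0.372). Gnai3 was at 20.1 TPM in replicate 2 and 28.9 TPM in replicate 1, with a count ratio of 0.353 (0.321 to 0.387), and was also called lower. With library totals neither Gnai1 nor Gnai3 reached 2-fold, and their log2 count ratios were -0.88 and -0.89. Gnai2 thus stood above Gnai1 in replicate 2 and far below it in replicate 1. Gnaz, the Gα of Gz, which is found in neurons and platelets, had 32.1 TPM in replicate 2 and 8.49 TPM in replicate 1, and its count ratio of 1.86 (1.66 to 2.09) fell short of 2-fold with TMM and passed it with library totals.

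The q/11 class activates phospholipase C β, and the 12/13 class acts on the actin cytoskeleton. Each class has a pair of genes here, and in each pair the libraries measured the members differently. The ends of the coding sequences of the q/11 pair are shown because the proteins are nearly alike there. Gnaq lies on chromosome 19 (16132831 to 16387463, plus strand) and Gna11 on chromosome 10 (81528724 to 81545190, minus strand).
Gnaq: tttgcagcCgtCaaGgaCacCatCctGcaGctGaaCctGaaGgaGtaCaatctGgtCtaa
Gna11: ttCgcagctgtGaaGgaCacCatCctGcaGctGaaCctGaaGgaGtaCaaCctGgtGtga

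These ends differ at 6 of 60 bases, 5 of them at the third codon position, and both are rich in G or C there, in 17 of 20 codons of Gna11 and 16 of 20 of Gnaq. Over the whole coding sequence of 1080 bases the pair differed at 211 positions, 154 of them at the third codon position, an identity of 80.5%. The third position was G or C in 81.7% of codons of Gna11 and 65.6% of Gnaq.

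Gna11 was at 57.0 TPM in replicate 2 and 1.37 TPM in replicate 1. Its counts were 1984 and 54, a ratio of 24.7 (95% counting interval 18.9 to 33.0), and it was called higher. Gnaq had nearly the same level in both, 60.2 TPM in replicate 2 and 58.9 TPM in replicate 1 (59.6 ± 0.948, SD, n = 2), and with 3563 and 4621 counts its ratio of 0.519 (0.496 to 0.542) was not called. Replicate 2 therefore held the pair at like levels, and replicate 1 held almost only Gnaq, which had 51.4% of the pair's TPM in replicate 2 and 97.7% in replicate 1.

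Gna12, on chromosome 5 (140758408 to 140830431, minus strand), had 48.0 TPM in replicate 2 and 2.65 TPM in replicate 1. With 1681 counts against 123, a ratio of 9.19 (7.65 to 11.1), it was called higher. Gna13, its close relative on chromosome 11, was at 19.9 TPM in replicate 2 and 15.0 TPM in replicate 1 and was not called, with a count ratio of 0.579 (0.534 to 0.629). The order of the pair thus differed, with Gna12 holding 70.7% of its TPM in replicate 2 and 15.0% in replicate 1.

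Gβ subunits are propellers that pair with Gγ, and Gβ1 to Gβ4 are close relatives while Gβ5 is divergent and binds R7 RGS proteins in place of Gγ. The summed level of the 5 Gβ genes was 905 TPM in replicate 2 and 239 TPM in replicate 1 (572 ± 471, SD, n = 2), the largest relative difference after the 12/13 class among the Gα, Gβ and Gγ classes. It kept its direction without mitochondrial genes in the total, with 1259 TPM in replicate 2 and 646 TPM in replicate 1. Gnb2 lies on chromosome 5 (137528127 to 137533510, minus strand) and Gnb1 on chromosome 4 (155491361 to 155559269, plus strand). The ends of their coding sequences are shown because Gnb2 had the highest ratio of the set and Gnb1 a ratio near 1.
Gnb2: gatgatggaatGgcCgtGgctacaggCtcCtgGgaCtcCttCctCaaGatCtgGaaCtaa
Gnb1: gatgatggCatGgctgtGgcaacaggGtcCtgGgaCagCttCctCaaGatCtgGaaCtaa

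The ends differ at 6 of 60 bases, 4 of them at the third codon position, and each has G or C at the third position in 14 of 20 codons. No stretch of 50 bases of the leading Gnb1 transcript was found in another gene, and the 3.80% of such stretches shared by the leading Gnb2 transcript were shared with Epo, which was listed at 0 TPM in both libraries.

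Gnb1, the most abundant Gβ gene of both libraries, had 409 TPM in replicate 2 and 218 TPM in replicate 1 and was not called, with 11039 and 8518 counts. Its log2 count ratio was -0.20 with TMM, and its sign turned to 0.41 with library totals and to 0.06 with totals that leave out mitochondrial genes. Gnb2, a widely expressed partner of many Gα subunits, had 353 TPM in replicate 2 and 0.90 TPM in replicate 1. Only 14 counts stood behind the value in replicate 1, against 3862 in replicate 2, a ratio of 185.5 (95% counting interval 110.4 to 340). Gnb2 was the second Gβ gene of replicate 2, with 39.0% of the class, and the fourth of replicate 1, with 0.377%.

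Gnb5 on chromosome 9 (75306288 to 75345876, plus strand), the obligate partner of R7 RGS proteins, was at 124 TPM in replicate 2 and 2.63 TPM in replicate 1. It was called higher with 1346 counts against 38, a ratio of 23.8 (17.3 to 33.8). Gnb4 stood at 18.9 TPM in replicate 2 and 17.1 TPM in replicate 1 and was not called. Gnb3, the Gβ of cone photoreceptors and taste cells, had 4 counts in replicate 2 and 0 in replicate 1, too few to test. A count of 0 allows up to 3 counts, or 1.64e-05% of the library, so its absence is not shown.

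Gγ subunits are small lipid-anchored proteins that hold Gβ at the membrane. The 10 Gγ genes summed to 858 TPM in replicate 2 and 477 TPM in replicate 1 (667 ± 269.5, SD, n = 2), which turned to 1193 and 1292 TPM without mitochondrial genes in the total. Of the 10 genes, 3 were called higher and 5 lower, beside 34.5% and 23.8% of all tested genes. No gene held most of the class in either library, the highest share being 23.9% for Gng13 in replicate 2 and 25.1% for Gng2 in replicate 1.

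Among those called higher, Gng13, known from taste, smell and retinal cells, had 205 TPM in replicate 2 and 10.5 TPM in replicate 1. Its values rest on few counts, 381 and 27, since its leading transcript is 347 bases long, and its ratio was 9.49 (95% counting interval 6.42 to 14.6). It was the first of 10 Gγ genes in replicate 2 and the ninth in replicate 1. Gng3, a neuronal Gγ, was at 136 TPM in replicate 2 and 18.5 TPM in replicate 1, with 2235 and 403 counts and a ratio of 3.73 (3.35 to 4.16). Gng7, which works with the stimulatory Gα of striatal neurons, had 115 TPM in replicate 2 and 40.3 TPM in replicate 1, and counts of 3684 and 580 with a ratio of 4.27 (3.91 to 4.67). The 6 striatal markers, which summed to 532 TPM in replicate 2 and 178 TPM in replicate 1, moved the same way, and their part in the Gng7 difference was not tested.

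Called lower were Gng2, Gng5, Gng10, Gng11 and Gng12, with count ratios between 0.368 and 0.475, and with library totals none of the 5 was called. Gng2, a widespread Gγ of brain, had 156 TPM in replicate 2 and 119.6 TPM in replicate 1 while its counts were 3657 and 6259, so its level and its count ratio pointed opposite ways. Gng10 was at 62.6 TPM in replicate 2 and 96.3 TPM in replicate 1, with 682 and 1246 counts. Gng5, present in most cell types, was at 85.1 TPM in replicate 2 and 90.9 TPM in replicate 1. Gng11, which is abundant in vessel cells, had 39.9 TPM in replicate 2 and 51.5 TPM in replicate 1. On the deposited scale the endothelial and mural marker sum ran the opposite way. Rgs5, 1 of the 6 genes of that sum, ran as Gng11 did, with 61.4 TPM in replicate 2 and 88.0 TPM in replicate 1. Gng12 had 36.4 and 35.8 TPM. Gng4, a brain Gγ, stood at 19.6 TPM in replicate 2 and 13.1 TPM in replicate 1 and was not called, with a log2 count ratio of -0.40 that turned to 0.21 with library totals. Gng8, the Gγ of vomeronasal and habenular neurons, had 1.89 TPM in replicate 2 and 0.38 TPM in replicate 1 from 15 and 4 counts, and its ratio of 2.52 (0.803 to 10.4) was not called with TMM, the interval holding 1. With library totals it was called higher, at a log2 count ratio of 1.82.

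The RGS genes fall into classes by their domains. The R4 class consists of little more than the RGS domain, the R7 class binds Gβ5, the R12 class includes proteins with further domains that bind Gα and Ras, and the RZ class includes regulators of Gz. Of the 13 genes including Rgs7bp, 3 were called higher and 3 lower, beside 34.5% and 23.8% of all tested genes.

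In the R4 class Rgs4, a regulator of Gi/o and Gq signals that is abundant in cortex, led the whole set in both libraries, with 413 TPM in replicate 2 and 352 TPM in replicate 1 (383 ± 43.1, SD, n = 2). Its counts of 12307 and 13914 gave a ratio of 0.595 (95% counting interval 0.580 to 0.609), which was not called. It held 79.2% of the class in replicate 2 and 80.9% in replicate 1. Rgs2, a regulator with a preference for Gq, had 46.0 TPM in replicate 2 and 64.7 TPM in replicate 1 and a count ratio of 0.504, just short of 2-fold. Rgs8, known for its abundance in cerebellar Purkinje cells, had 44.6 TPM in replicate 2 and 15.6 TPM in replicate 1, with a ratio of 1.72 that was not called with TMM and was called higher with library totals, at a log2 count ratio of 1.39. The cerebellar marker sum ran the other way on the deposited scale, 81.4 TPM in replicate 2 and 114 TPM in replicate 1. That sum rests on few genes, since 3 of the 6 reached 1 TPM in each library. Pcp2, 1 of the 6, had 1 count in replicate 2 and 0 in replicate 1. Rgs16, at 17.6 TPM in replicate 2 and 2.71 TPM in replicate 1 with 411 and 84 counts, was the gene of the class called higher, with a ratio of 3.29 (2.60 to 4.21).

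The R7 proteins need Gβ5 for their stability, and their genes and that of Gβ5 differed in what the libraries measured. Rgs7 was at 62.3 TPM in replicate 2 and 58.4 TPM in replicate 1 (60.3 ± 2.80, SD, n = 2), and Rgs6 at 24.7 and 16.4 TPM. Neither was called, with count ratios of 0.578 and 1.28. Rgs7bp, the lipid-modified anchor of these complexes, had 95.2 TPM in replicate 2 and 119 TPM in replicate 1 and was called lower, with 5821 and 9653 counts and a ratio of 0.406 (0.392 to 0.419), but not with library totals. Gnb5 was at 124 TPM in replicate 2 and 2.63 TPM in replicate 1. The anchor and both regulators thus lay below their partner in replicate 2, Rgs6 furthest at 24.7 TPM, and all of them lay above it in replicate 1.

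In the R12 class Rgs14, an RGS protein of hippocampal CA2 neurons that also binds inactive Gαi, had 36.3 TPM in replicate 2 and 0.42 TPM in replicate 1. Its counts of 854 and 10 gave a ratio of 57.4 (95% counting interval 31.1 to 120.2), the second highest of the set. Rgs12, a large scaffold with PDZ and Ras-binding domains, was called higher by counts, 626 in replicate 2 and 141 in replicate 1, with a ratio of 2.99 (2.48 to 3.61), while its level was 17.5 TPM in replicate 2 and 13.2 TPM in replicate 1. Rgs10, a small RGS protein prominent in microglia, was at 70.2 TPM in replicate 2 and 24.9 TPM in replicate 1 and was not called with TMM, its ratio being 1.35 (1.16 to 1.58), but was called higher with library totals. On the deposited scale the 6 microglial markers summed to 300.2 TPM in replicate 2 and 182 TPM in replicate 1, and their part in the Rgs10 values was not tested.

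The RZ class ran mostly the other way. Rgs17, on chromosome 10 (5825663 to 5922400, minus strand), had 23.9 TPM in replicate 2 and 42.4 TPM in replicate 1, and its 2043 counts against 4728 gave the lowest ratio of the set, 0.291 (95% counting interval 0.276 to 0.306). Rgs20, a regulator selective for Gz, was at 34.7 TPM in replicate 2 and 46.3 TPM in replicate 1 and was called lower with a ratio of 0.438, though not with library totals. Rgs19, which was at 28.3 TPM in replicate 2 and 7.98 TPM in replicate 1, was not called with TMM, with 266 and 131 counts, but was called higher with library totals.

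Within classes, the order of the genes was read from TPM, which is per length. On the deposited scale Gnao1 led all Gα genes with 39.5% of their summed TPM in replicate 2 and 42.2% in replicate 1. The next was Gnai2 in replicate 2, at 15.5%, and Gnai1 in replicate 1, at 32.4%. With 1 effective length for both libraries the lead turned in replicate 1, where Gnai1 was at 157 TPM and Gnao1 at 151 TPM, and Gnao1 kept it in replicate 2 with 376 TPM. Rgs4 held 50.4% of the RGS sum in replicate 2 and 54.6% in replicate 1. The 12 RGS genes together stood at 819 TPM in replicate 2 and 645 TPM in replicate 1, a ratio of 1.27 that turned with totals free of mitochondrial genes, to 1139 and 1747 TPM. The 9 Gα genes were at 770.2 TPM in replicate 2 and 479 TPM in replicate 1, a ratio of 1.61, and likewise turned to 1071 and 1298 TPM. The Gβ ratio of 3.79 was the highest of these sums on the deposited scale, and shares within a class do not depend on the total.

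**Figure D3:**
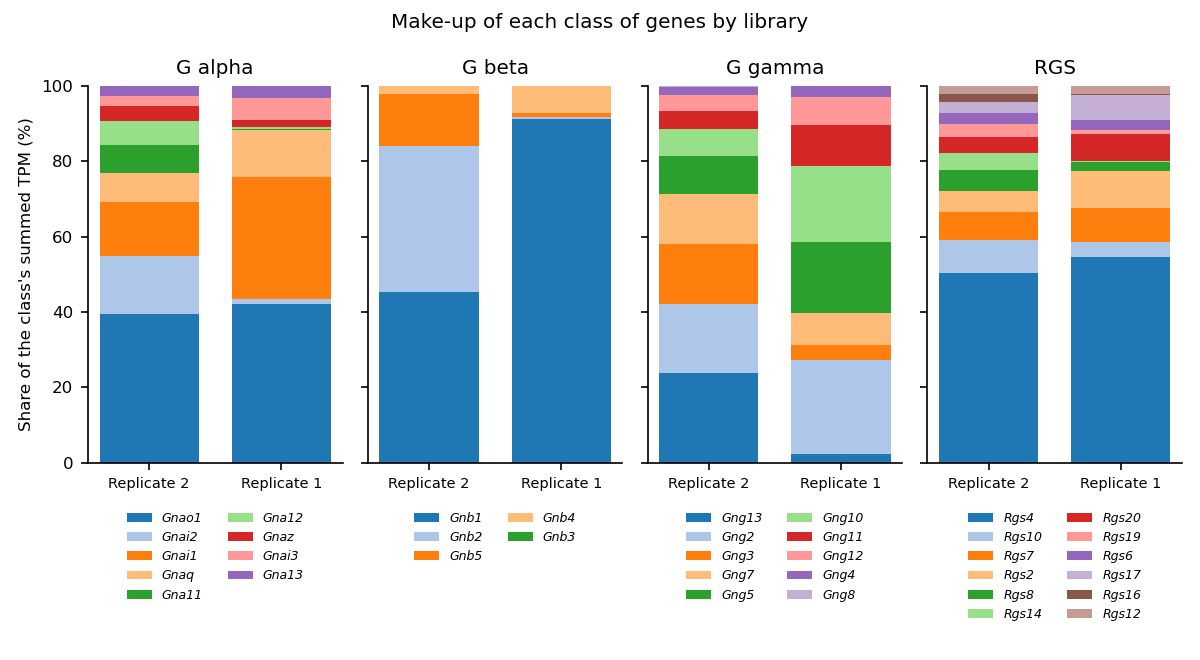
Share of each gene in the summed TPM of its class (percent), replicate 2 left and replicate 1 right in each panel. Gnb1 holds 45.2% of the Gβ sum in replicate 2 and 91.4% in replicate 1, and Gng13 23.9% and 2.21% of the Gγ sum, whereas Gnao1 and Rgs4 lead their classes in both libraries on this scale. With 1 effective length for both libraries Gnai1, at 157 TPM, stands above Gnao1, at 151 TPM, in replicate 1.

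The library ratio of the genes followed the GC content of their transcripts. Over the 37 genes, GC content ran between 37.1% for Rgs17 and 59.9% for Gnb2, the genes with the lowest and highest count ratio. Pearson's r between GC content and the log2 ratio of (TPM + 1), replicate 2 over replicate 1, was 0.77 and Spearman's rank correlation 0.85 over the 37 genes, and 0.82 and 0.89 over the 14188 genes that averaged at least 1 TPM. These are descriptions across genes of the same libraries, which are not independent replicates. Within a library, the log2 TPM of the 37 genes had an r with GC content of -0.06 in replicate 2 and -0.74 in replicate 1. The 10 genes with a GC content of 55% to 60% had a median of 52.5 TPM in replicate 2 and 2.00 TPM in replicate 1, and 7 of them were called higher and 0 lower. The 8 genes of 35% to 45% had a median of 54.3 TPM in replicate 2 and 80.5 TPM in replicate 1, and 0 were called higher and 6 lower. Median log2 TPM ratios of these groups were 4.09 and -0.49, beside 3.03 and -0.38 over all genes of the same GC content. The shares called among all genes of the same GC content were not computed. Over all tested genes of any GC content, 34.5% were called higher and 23.8% lower.

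**Figure D4:**
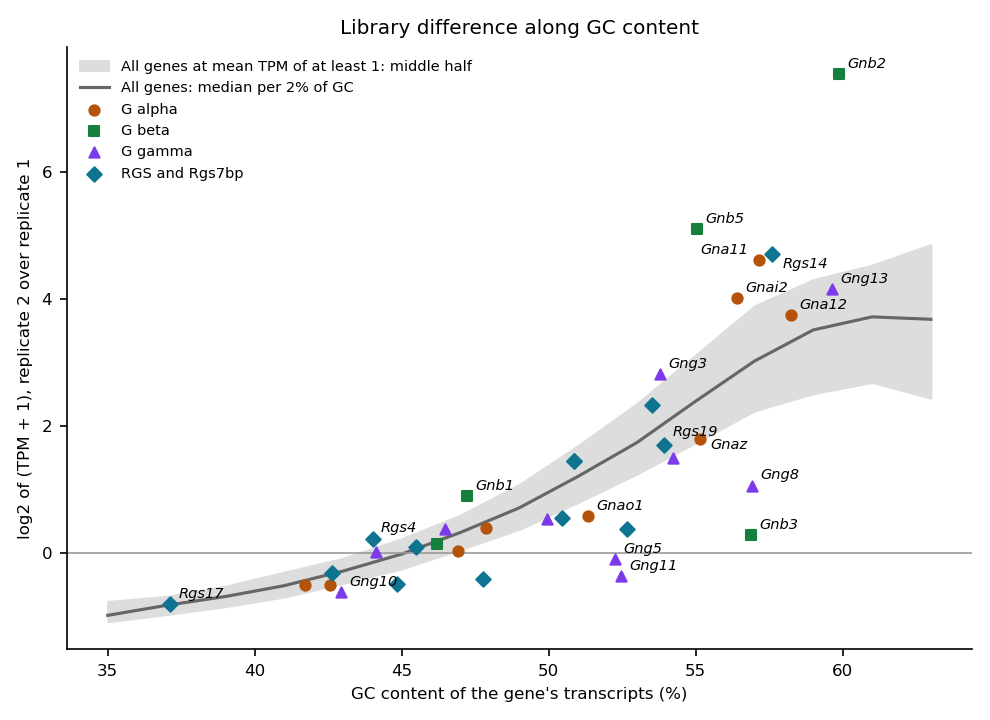
Log2 ratio of (TPM + 1), replicate 2 over replicate 1, against the GC content of the gene's transcripts for the 37 genes, with the median (line) and interquartile range (band) of all genes at a mean TPM of at least 1. Gnb2 and Gnb5 lie above the line at 7.54 and 5.11. Gnb3, Gng8, Gng5 and Gng11 lie below it at 0.29, 1.07, -0.09 and -0.36. Several other genes, Gnb1 at 0.905 and Rgs12 at 0.38 among them, lie outside the band.

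The sequence ends printed above show only in part where in the transcript the GC content lay. Gna11 and Gnaq have ends that differ at 6 of 60 bases and whole transcripts of 57.2% and 46.9%. Gnb2 and Gnb1 have ends of 53.3% each and transcripts of 59.9% and 47.2%. Their whole coding sequences are less alike than the ends, with 58.1% in Gnb2 and 51.9% in Gnb1, and 55.65% in Gna11 and 49.8% in Gnaq. The coding sequence used for Gnb2 has 723 bases and that for Gnb1 has 1023. Over the 37 genes the r of the library ratio was 0.77 with the GC content of whole transcripts, 0.50 with that of the coding sequence, 0.55 with the third codon positions alone and 0.16 with the first and the second. Coding and whole GC content lay far apart in Gng10, Rgs17 and Gng11. Gng10 has the highest coding GC content of the set, 62.3%, in a coding transcript of 46.7%. The 42.9% of the gene also weighs in Gng10-202, a transcript of 40.4% with no annotated coding sequence. Rgs17 has a coding GC content of 48.0% in a gene of 37.1%, and both Gng10 and Rgs17 were called lower. Gng11 is placed the other way, with the lowest coding GC content of the set, 43.2%, in a transcript of 52.45%. It was called lower too, so these genes do not settle which part of the transcript mattered.

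When the smooth trend of the count ratio on GC content was removed, 4 of the 36 genes were called higher, Gna11, Gnb2, Gnb5 and Rgs14, where 10.3% of 16263 genes were called higher. Another 5 were called lower, Gnaz, Gng5, Gng11, Gng13 and Rgs19, beside 9.06% of all. Gnb2 kept a log2 ratio of 3.07, Gnb5 2.32, Rgs14 2.28 and Gna11 1.32. The single annotated transcript of Gnb5, of 1188 bases, is coding sequence throughout, so its GC content is that of coding sequence alone. Gng13 changed sides, with a log2 count ratio of 3.22 before and -1.10 after. Gnai2 and Gna12 lost their calls, with 0.56 and -0.58 after removal, and so did Gnai1 at -0.17, Gnai3 at -0.08 and Rgs17 at 0.11. The median absolute log2 count ratio of the 36 genes was 0.36 with the trend removed and 1.30 without, and over all tested genes it was 0.44 and 1.27.

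The libraries also differed in which transcript of a gene they credited. The 37 genes have 190 annotated transcripts, and of the 36 with a leading transcript in both libraries, 24 had the same one and 12 a different one. Of the 24, 9 have a single annotated transcript. In 12 of the 12 that differed, the leading transcript of replicate 1 was shorter than that of replicate 2, and in 11 it had a lower GC content, with medians of 53.1% in replicate 2 and 50.5% in replicate 1. The leading transcript was not annotated as protein-coding for 1 gene in replicate 2, Gnb4, and for 6 genes in replicate 1. In Gnb2, 1 of those 6, it led on 2.73 counts. These shares are estimates of the authors' quantification, and the intervals given with counts do not cover their error.

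By the shares used here Rgs14 and Gng10 changed wholly. Rgs14-201, which is protein-coding, held 100% of the gene in replicate 2 and 0% in replicate 1, where Rgs14-202, a transcript with a retained intron, held all of 10 counts. By the posterior mean shares, a second deposited estimate, the change was not whole. Rgs14-201 then held 93.6% in replicate 2 and 13.75% in replicate 1, and Rgs14-202 4.27% and 58.7%. For Gng10 the protein-coding Gng10-201 held 100% in replicate 2, and Gng10-202, a transcript with no annotated coding sequence and a GC content of 40.4%, held 100% in replicate 1 with 1246 counts. No count of Gng10 in replicate 1 was thus credited to its coding transcript. Its posterior mean shares were close to these, with 96.8% in replicate 2 and 0.74% in replicate 1 for Gng10-201.

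For Gnao1 the difference touches known protein forms, since the gene makes alternative ends of Go by alternative last coding exons. Gnao1-201 and Gnao1-203 share 1 coding sequence, whose end is printed as Gnao1-201, and together had 239 TPM in replicate 2 and 104 TPM in replicate 1. Gnao1-207, with the other end and a GC content of 56.1%, had 44.99 TPM in replicate 2 and 0.61 TPM in replicate 1, from 1047 and 18.7 counts. In replicate 1 a fragment of 332 bases, Gnao1-208, held 45.3% of the gene's TPM on 199 of its 4665 counts, and it was at 0 in replicate 2. The whole coding sequences of the Go forms differ at 88 of 1065 positions, an identity of 91.7%.

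Other genes changed in part. Gnai2-201 held 84.2% in replicate 2 and 6.5% in replicate 1, and the shorter Gnai2-202 held 12.3% and 90.6%. The posterior mean share of Gnai2-202 in replicate 1 was lower, 58.5%. Gng7-201, of 3362 bases, held 83.7% in replicate 2 and 12.5% in replicate 1, and Gng7-205, of 875 bases, 8.87% and 87.5%. In Rgs12 the leading transcript was the protein-coding Rgs12-206 in replicate 2, with 57.3% there and 3.57% in replicate 1, and the processed transcript Rgs12-213 in replicate 1, with 0% in replicate 2 and 79.2% in replicate 1. Both Gng7 and Rgs12 therefore had levels in TPM that differed less than their counts.

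**Figure D5:**
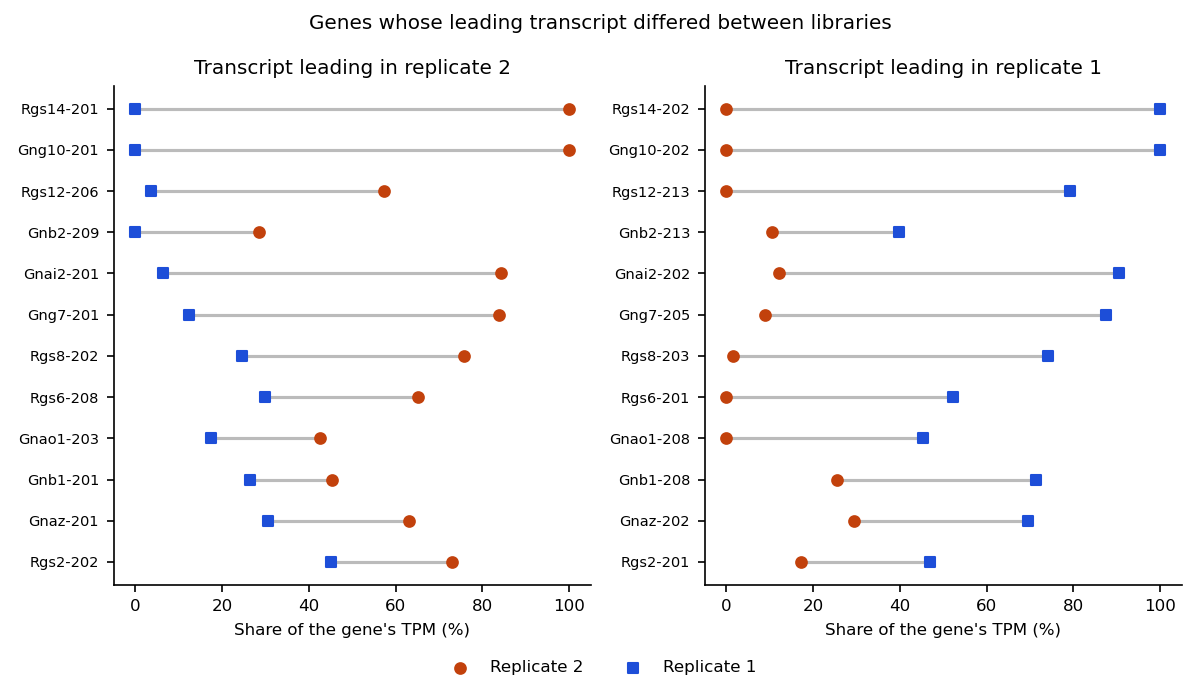
Share of the gene's TPM (percent) in replicate 2 (circles) and replicate 1 (squares) for the 12 genes whose leading transcript differed, with the transcript leading in replicate 2 on the left and the one leading in replicate 1 on the right. Rgs14 and Gng10 run the whole width between 0% and 100% in both panels.

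Levels were also recomputed from counts with 1 effective length for both libraries. Rgs12 was then at 28.0 TPM in replicate 2 and 4.91 TPM in replicate 1, Gng7 at 169 and 20.7 TPM, and Gnao1 at 376 and 151 TPM. Gng2 turned to 114 TPM in replicate 2 and 152 TPM in replicate 1, and Gng12 to 31.4 and 40.5 TPM, so the direction of their levels rests on the effective length used, although Gng2 had the same leading transcript in both libraries. Genes whose leading transcript changed could also move little: Gng10 was at 64.7 TPM in replicate 2 and 92.1 TPM in replicate 1, and Gnb2 at 334 and 0.94 TPM.

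Several genes share sequence with others, and the counting could split their reads. Of the 50-base stretches of the leading transcript in replicate 2, 78.9% of Gng10 were also in Gm20503, 37.6% of Gng13 in Chtf18, 30.1% of Gng5 in Gng5-ps and other copies, 22.7% of Gng2 in Gng2-ps1 and another gene, and 21.9% of Gng3 in Bscl2. These shares mark where reads could be split and do not measure the error of a value. The quantification credited Gm20503 with 0 TPM in both libraries, and Chtf18 with 1.0 TPM in replicate 2 and 0.41 TPM in replicate 1. No source used here gives whether the counting used strand, and Gng3, Gna12 and Rgs20 overlap Bscl2, Amz1 and Atp6v1h on the opposite strand. Bscl2 was at 64 TPM in replicate 2 and 10.2 TPM in replicate 1, Amz1 at 6.66 and 0.47 TPM, and Atp6v1h at 188 and 196 TPM.

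A list of 57 measured genes of the same pathway, covering the other G protein and RGS genes, chaperones, receptor kinases, arrestins and effectors, gave 24 genes called higher and 9 lower among the 50 tested, where 34.5% of all tested genes were called higher and 23.8% lower. With library totals 29 were called higher and 1 lower, against 43.4% and 7.83% of all. With the GC trend removed 2 were called higher, Arrb2 and Arhgef1, and 4 lower, Gnas, Gnal, Adcy5 and Gprin1, against 10.3% and 9.06% of all. The stimulatory Gα gene Gnas had 1286 TPM in replicate 2 and 497 TPM in replicate 1, above every gene of the 37 in both libraries, and was not called with TMM but called higher with library totals. Gnal, which encodes the olfactory and striatal form, was at 74.9 TPM in replicate 2 and 60.2 TPM in replicate 1 and was not called with TMM or library totals. With the GC trend removed both were called lower, with log2 count ratios of -1.39 and -1.42. The photoreceptor Gα and Gγ genes Gnat2 and Gngt1 and the taste Gα gene Gnat3 were listed at 0 in both. Gnb1l, Gngt2 and Gna15 were called higher from few counts, 60, 45 and 20 in replicate 2 against 7, 7 and 1 in replicate 1, and none of them stayed called with the GC trend removed.

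Of the 10 other RGS genes and partners tested, 4 were called higher and 4 lower, beside 34.5% and 23.8% of all tested genes, and with the GC trend removed 0 were called in either direction. Rgs9, the R7 protein of striatal neurons, was called higher with 47.8 TPM in replicate 2 and 7.36 TPM in replicate 1, and so were Rgs11 with 38.8 and 1.64 TPM, Rgs3 with 29.8 and 1.59 TPM, and the low Gpr179. Rgs9 is itself 1 of the 6 striatal markers, and Rgs5 1 of the 6 endothelial and mural ones. Rgs5, a marker of pericytes, was called lower with 61.4 TPM in replicate 2 and 88.0 TPM in replicate 1, as was Gpr158, a receptor that recruits R7 proteins, with 42.8 and 46.2 TPM. Rgs1 and Rgs13, which are known from immune cells, were called lower on 2 and 3 counts in replicate 2 and 8 and 11 in replicate 1. None of these 4 stayed called lower with library totals. Rgs21 was listed at 0 in both libraries.

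Receptor kinases phosphorylate active receptors and arrestins then bind them, and of these 7 genes 4 were called higher and 1 lower, where the shares over all tested genes were 34.5% and 23.8%. With the GC trend removed Arrb2 alone of the 7 was called, at a log2 count ratio of 1.33, and Grk6 changed sign to -0.60. Grk2 had 128 TPM in replicate 2 and 13.2 TPM in replicate 1, Arrb1 84.0 and 16.3 TPM, Arrb2 55.3 and 1.18 TPM, and Grk6 32.7 and 2.52 TPM. Grk4, at 3.08 TPM in replicate 2 and 4.52 TPM in replicate 1, was called lower, also with library totals but not with the GC trend removed.

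The effectors of Gαq showed both directions, and with the GC trend removed none of the 4 was called. Plcb1, the main brain phospholipase C β, had 89.1 TPM in replicate 2 and 93.0 TPM in replicate 1, and Plcb4 46.3 and 53.0 TPM, and both were called lower by counts with TMM but not with library totals. Plcb3 and Plcb2 were called higher at 6.85 and 1.68 TPM in replicate 2 against 0.36 and 0.26 TPM in replicate 1.

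Among the potassium channel subunits opened by Gβγ, Kcnj3 was called lower with 56.2 TPM in replicate 2 and 91.4 TPM in replicate 1, though not with library totals. Kcnj9 was called higher with 63.1 TPM in replicate 2 and 4.37 TPM in replicate 1, and its log2 count ratio changed sign to -0.43 with the GC trend removed, when none of these subunits was called. Kcnj6, the partner of Kcnj3 in many neurons, was not called, with 15.0 TPM in replicate 2 and 5.19 TPM in replicate 1.

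Of the 6 adenylyl cyclase genes, which make cyclic AMP, 3 were called higher and 0 lower, beside 34.5% and 23.8% of all tested genes. These were Adcy5, the striatal form, with 57.3 TPM in replicate 2 and 4.47 TPM in replicate 1, Adcy3 with 21.6 and 2.00 TPM, and Adcy9 with 19.4 and 1.71 TPM. With the GC trend removed none of the 6 was called higher, and Adcy5 turned to called lower, with a log2 count ratio of 2.70 before and -1.56 after. Adcy1, a calcium-stimulated form at 121 TPM in replicate 2 and 42.6 TPM in replicate 1, and Adcy2, at 54.9 and 17.1 TPM, passed 2-fold with library totals and not with TMM. The striatal marker sum was 532 TPM in replicate 2 and 178 TPM in replicate 1, and its part in the Adcy5 difference was not tested.

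The guanine nucleotide exchange factor genes Kalrn, Arhgef1 and Arhgef11 were called higher, of which Arhgef1 alone stayed called with the GC trend removed. Kalrn had 157 TPM in replicate 2 and 33.9 TPM in replicate 1, Arhgef1, an effector of Gα12 and Gα13, had 36.2 and 0.22 TPM, and Arhgef11 had 23.7 and 10.6 TPM. Arhgef12 stood at 41.3 TPM in replicate 2 and 25.3 TPM in replicate 1 and was not called.

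Of the chaperones and nucleotide dissociation inhibitors, Ric8a, a chaperone of Gα, was called higher with 43.8 TPM in replicate 2 and 3.69 TPM in replicate 1, and Ric8b, its relative for the stimulatory Gα, was not called at 31.2 and 23.2 TPM. Gprin1 and Gpsm1, which bind Gα of the i/o class, were called higher with 41.5 and 28.4 TPM in replicate 2 against 6.51 and 1.28 TPM in replicate 1. With the GC trend removed both changed sign: Gprin1 turned to called lower, with a log2 count ratio of 1.70 before and -2.62 after, and Gpsm1 was no longer called, with 3.69 before and -0.57 after. Ric8a and Gpsm3 lost their calls as well. Gpsm3 was called higher with 30 counts in replicate 2 against 0 in replicate 1. Pdcl, which encodes a phosducin-like chaperone of Gβγ, was called lower with 20.99 TPM in replicate 2 and 22.6 TPM in replicate 1, but not with library totals, and Cct2, a subunit of the chaperonin that folds Gβ, was not called at 117 and 53.6 TPM.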

How the data were processed

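Brain RNA of 1 mouse was measured in 2 libraries with 1 gene table and 1 transcript table each. The authors deposited expected counts, which are estimates and hold fractions of reads. Their TPM and FPKM values, also deposited, are scaled for length and depth. Each transcript's percent of its gene is deposited in the transcript tables. Bounds on TPM, whose level is not stated, are kept as a score and were deposited by the authors, per the file headers, and were not used for tests. The build (mm10) and annotation (GENCODE M4) are those of the deposited file listings; for the aligner and quantifier no source used here gives a name. Rows with a number (26248) or a spike-in name (97) held 1 count in replicate 2 and 0 in replicate 1 and were left out.

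Symbols, positions and sequences came from GENCODE M21 (GRCm38), matched by identifier without version; no member's symbol had several identifiers. GC content is the mean over a gene's transcripts weighted by mean TPM. Log2 TPM ratios use a pseudocount of 1 and understate the change of low genes. For genes whose libraries summed to 10 counts or more, expected counts were rounded and compared with the two-sided exact binomial test, with TMM sizes (edgeR 4.0.16, R 4.3.3), Benjamini-Hochberg adjustment over all tested genes and 0.5 added to counts for the fold. The tests of edgeR and DESeq2 could not be fitted with 1 library a side. Intervals are exact Clopper-Pearson at 95%, and these and the floor of 3 counts (1.68e-05% of replicate 2, 1.64e-05% of replicate 1) cover counting error only. GC and length trends are lowess fits (statsmodels 0.14.6, fraction 0.2). The test was tested on simulated data. Further tools were scipy 1.17.1, pandas 2.3.3 and numpy 2.4.6 in Python 3.11.15, matplotlib 3.10.9 for figures, and DESeq2 1.42.0 for size factors.

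The set of genes follows from family names, but it, the lists and the markers were chosen with earlier results of these data known. All 37 genes are named; of the pathway list, the 3 of highest mean TPM of each group and any called. Genes of that list at 0 in both libraries were named after their values were seen. The alternatives were library totals, totals without mitochondrial genes, DESeq2 size factors, posterior mean values, no count minimum, a fold of 1.5, GC and length trends removed, FPKM, other pseudocounts, and, chosen after seeing the data, 1 effective length for both libraries and the GC content of the third codon positions.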

Additional observations from a re-analysis of the deposited data

How the results depend on the processing

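Calls and signs held with DESeq2 size factors, posterior mean counts and no count minimum for all 36 tested genes of the set. Leaving out a library leaves the sums and shares of the other, which are given above, and a protein-coding transcript led in 36 genes without replicate 1 and 30 without replicate 2. With library totals 1 gene of the set and 1 of the pathway list were called lower. At a fold of 1.5, 13 of the set were called higher and 16 lower. The shares over all tested genes were not computed at that fold, so these counts have no background beside them. With the GC trend removed the counts were 4 higher and 5 lower in the set and 2 higher and 4 lower in the list. Log2 count ratios that changed sign with library totals were 0.41 for Gnb1, 0.21 for Gng4, 0.32 for Arhgef12 and 0.035 for Ric8b, and without mitochondrial genes in the totals 0.057 for Gnb1. With the length trend removed Gnao1 was at -0.050, Gng8 at -0.092, Rgs10 at -0.89 and Rgs19 at -0.69. Those that changed sign with the GC trend removed were, in the set, Gnao1 at -0.25, Gnaz at -1.39, Gna12 at -0.58, Gnb1 at 0.31, Gnb4 at 0.0325, Gng8 at -1.97, Gng13 at -1.10, Rgs4 at 0.35, Rgs7 at 0.058, Rgs7bp at 0.0016, Rgs10 at -0.034, Rgs17 at 0.11 and Rgs19 at -1.22. In the list they were Kcnj9 at -0.43, Kcnj6 at -0.16, Grk6 at -0.60, Adcy1 at -0.56, Adcy2 at -0.24, Adcy5 at -1.56, Ric8b at 0.033, Gprin1 at -2.62, Pdcl at 0.40, Gpsm1 at -0.57, Gnas at -1.39, Gna15 at -0.55, Gnb1l at -0.081, Rgs3 at -0.015, Gpr179 at -1.32, Plcb4 at 0.19 and Plcb3 at -0.026. The cause of these changes was not tested. TPM rescaled without mitochondrial genes gave mean sums of 950.2 for Gα i/o/z, 163 for q/11, 71.1 for 12/13, 952 for Gβ, 1242 for Gγ, 138 for R12, 952 for R4, 162 for R7, 227 for Rgs7bp and 191 for RZ. As FPKM, another unit, the sums were 335 for Gα i/o/z, 329 for R4, 55.8 for R7, 75.7 for Rgs7bp and 64.4 for RZ. The share of Gnao1 in its class was 56.8% in replicate 2 and 42.9% in replicate 1 with 1 effective length for both libraries (mean 49.8%), where Gnai1 led in replicate 1, and r with the GC content of the third codon positions was 0.55, both alternatives chosen after seeing the data. No paired analysis was possible because both libraries belong to 1 group. Depth limits Gnb3, Gng8, Gnb2 and Rgs14 most, each with 14 counts or fewer in replicate 1.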
